A study of Drosophila melanogaster with 8 samples.

Results

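The ecdysone receptor and the genes that answer it early were followed as 10 named genes of the deposited table, out of 17807 genes listed. They were taken by symbol, were all above the filter on low values, and are EcR, usp, Eip74EF, Eip75B, Hr3, Hr4, Hr38, Hr39, ftz-f1 and Eip71CD. Total RNA of the dissected CNS, the larval brain and ventral nerve cord, had been sequenced from Drosophila melanogaster larvae in L1, the earliest larval stage, of flies kept at 25 degrees. Larvae homozygous for deletion alleles of both elav and fne (elav5/fne in the labels, the double mutant here) gave 3 libraries, larvae homozygous for the deletion allele elav5 (the single mutant) gave 2, and Canton-S, a wild-type strain, gave 3. elav and fne encode neuronal RNA-binding proteins of the ELAV/Hu family. The labels name no driver and no agent. Each genotype is a line of its own, and larvae of every genotype were picked by hand, alive, by a visible marker. The extent of either deletion is not given in the sources used here.

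Ecdysone is the steroid that times moulting and metamorphosis in insects. It binds a heterodimer of the nuclear receptors EcR and Ultraspiracle (usp), which switches on a small set of early genes, among them Eip74EF and Eip75B. Their products and the receptor act on early-late genes such as Hr3 and Hr4, and when the hormone falls again, competence factors such as ftz-f1 appear. In the nervous system of Drosophila the same receptors take part in neuron remodelling, in temporal patterning of neuroblasts and in the timing of neuron birth.

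The gene models are those of the Ensembl annotation of the Release 6 assembly (dm6 coordinates). EcR (FBgn0000546) lies on 2R from 6087873 to 6169087 and Hr3 (FBgn0000448) on 2R from 10203995 to 10237348. Eip71CD (FBgn0000565, 15511052 to 15513202), Eip74EF (FBgn0000567, 17558672 to 17619325), Eip75B (FBgn0000568, 17950953 to 18064696) and ftz-f1 (FBgn0001078, 18750607 to 18801309) are all on 3L. Hr38 (FBgn0014859, 20683462 to 20714588) and Hr39 (FBgn0261239, 21237250 to 21259675) are on 2L, and Hr4 (FBgn0264562, 1941940 to 2007956) and usp (FBgn0003964, 2038798 to 2042311) are on the X chromosome. Most are long genes with several promoters. Their median span is 42.0 kb, against 2.70 kb for the 10515 tested genes with a model, and Eip71CD is the shortest at 2.15 kb. A value per gene sums all transcripts of the gene, so isoforms such as those of EcR were not told apart.

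Expression is given in CPM, a gene's reads for every 1000000 reads of its library, and a difference between genotypes as log2 of the ratio of CPM + 1, with the standard error (SE). This scale understates the differences of low genes. A gene was called when its p-value from limma, adjusted by Benjamini-Hochberg over all 10575 genes tested, was under 0.05. Libraries held from 30038106 to 38056274 reads in genes, and the smallest number of reads for any of the 10 genes in a library was 42, for Hr3. Whether the libraries of 1 genotype stem from separate larvae is not stated in the labels, and the p-values therefore reflect only how these samples vary, which may be technical. elav stood between 53.2 and 61.0 CPM in the double mutant, at 33.4 and 24.4 CPM in the single mutant and between 599 and 620 CPM in Canton-S. fne stood between 127 and 179 CPM in the double mutant, at 938 and 1129 CPM in the single mutant and between 960 and 1045 CPM in Canton-S. Both genes were thus low where the labels name them as deleted and in no other library. The 10 neuron markers summed to between 5478 and 6429 CPM in the double mutant, between 10830 and 11440 CPM in the single mutant and between 13050 and 13380 CPM in Canton-S, and none of them was at 0. The most abundant of them, nrv3, averaged 1206 ± 159 CPM in the double mutant, 2183 ± 326 CPM in the single mutant and 2551 ± 40.9 CPM in Canton-S (SD). The 10 glia markers summed to between 4693 and 5830 CPM in the double mutant, between 6623 and 7140 CPM in the single mutant and between 5899 and 6209 CPM in Canton-S. In bulk samples of this kind, fewer cells of a type and less RNA per cell cannot be told apart.

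In the double mutant against Canton-S, 9 of the 10 genes were called, 3 higher and 6 lower. Over all genes tested 59.2% were called, 32.5% higher and 26.7% lower. Of the genes called 54.9% were thus higher, against 41.3% under quantile normalization, while the split of the 10 genes was 3 and 6 under both. Eip71CD, Hr38 and Hr3 fell most, by 12.1-fold, 5.66-fold and 6.76-fold between the group means. Eip74EF, Hr4 and ftz-f1 rose. The median log2 difference of the 10 genes was -0.51, against 0.07 for all genes tested. In the single mutant against Canton-S, 4 of the 10 were called, all lower, where 20.1% of all genes were called, 8.29% higher and 11.8% lower. The 4 calls became 1 without Canton-S replicate 1 or 2, and 2 without Canton-S replicate 3 or either single mutant library. Of the genes called there 41.3% were higher, against 52.4% with DESeq2. The mutants share the Canton-S libraries as their control.

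**Figure D1:**
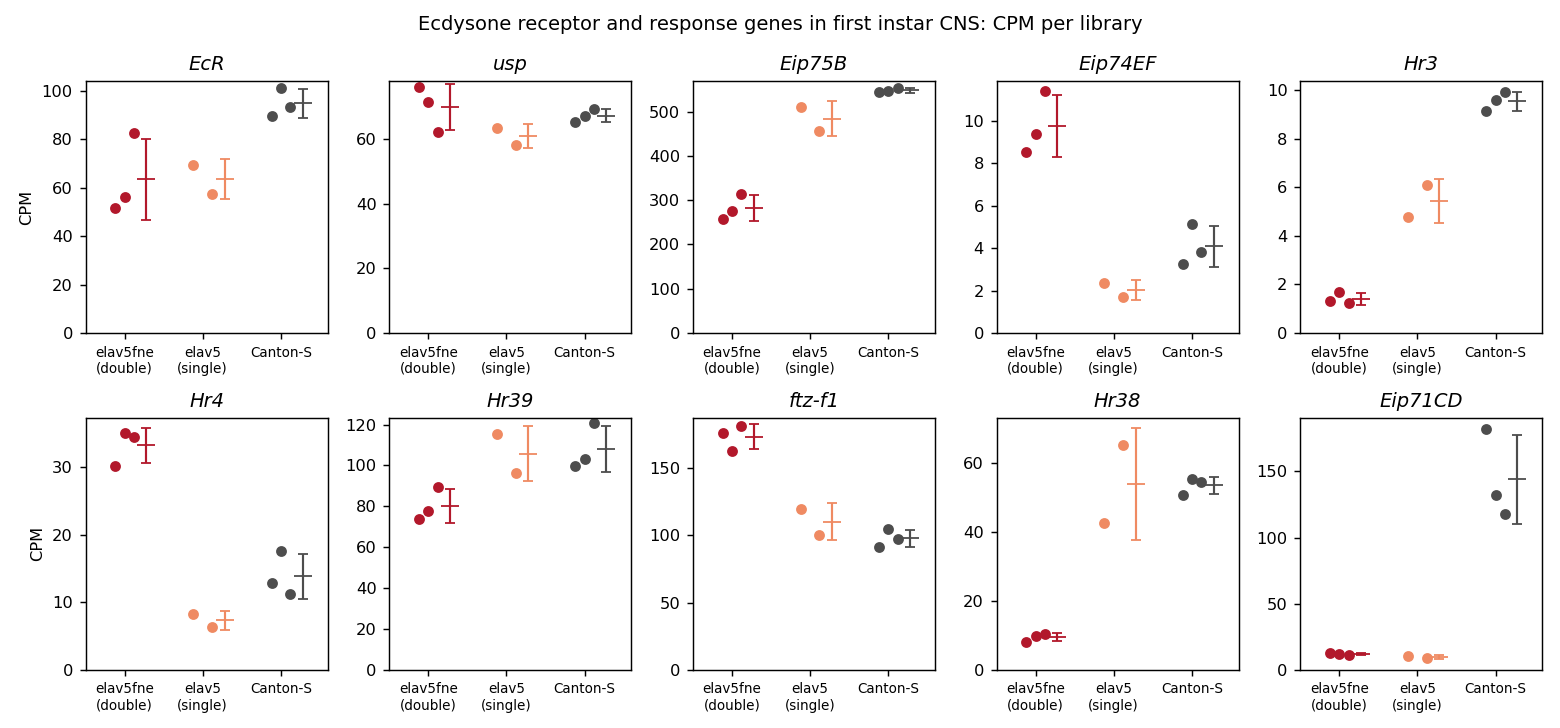
CPM of each of the 10 genes (vertical axes start at 0) in every library of the double mutant, the single mutant and Canton-S. Points are libraries, and the bar beside them is the mean with its SD (n = 3, 2 and 3). Hr3, Hr38 and Eip75B are lowest in the double mutant, Eip71CD is low in both mutants, and Eip74EF and Hr4 are highest in the double mutant and lowest in the single mutant.

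Of the 2 subunits of the receptor, EcR fell in the double mutant and usp was not called in either mutant. EcR, the subunit that binds the hormone, was read at 51.6, 56.2 and 82.3 CPM in the double mutant, at 69.3 and 57.5 CPM in the single mutant and at 89.4, 101 and 93.4 CPM in Canton-S. All 5 mutant libraries were below all 3 of Canton-S, and replicate 3 of the double mutant stood nearest to them. EcR fell by 0.60 (log2) in the double mutant, with an SE of 0.17 and an adjusted p = 0.017. The fall was past the threshold in 18 of 20 alternatives, but not without Canton-S replicate 2 or double mutant replicate 2 (adjusted p = 0.057 and 0.059, against a range from 0.00027 to 0.059 over all alternatives). The log2 difference of EcR in the single mutant was of like size, -0.58 (SE 0.19), with an adjusted p = 0.071. It was called there in 4 of 20 alternatives, among them that without double mutant replicate 3 (adjusted p = 0.010, against a range from 0.010 to 0.28).

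usp, the partner that EcR needs to bind DNA, was read at 76.1, 71.6 and 62.3 CPM in the double mutant, at 63.6 and 58.3 CPM in the single mutant and at 65.3, 67.2 and 69.3 CPM in Canton-S. The libraries of the double mutant spread over the whole range of Canton-S and past it on both sides. Its log2 difference was 0.05 (95% interval -0.15 to 0.25, adjusted p = 0.63) in the double mutant and -0.14 (-0.37 to 0.09, adjusted p = 0.34) in the single mutant. usp shares 265 bases of exon on the same strand with Actn, alpha-actinin, which averaged 258 ± 95.1 CPM in the double mutant and 60.6 ± 3.73 CPM in Canton-S (SD, n = 3 each). It also shares 196 bases with CG4313 on the other strand, which averaged 21.0 ± 1.43 CPM in the double mutant and 11.4 ± 2.10 CPM in Canton-S. How shared positions were counted is not given in the sources used here, so the value of usp may carry reads of these genes or have lost reads to them.

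Eip75B and Eip74EF, the early genes followed here, moved in opposite directions in the double mutant. br, another early gene, was counted in a separate list and was lower there (log2 difference -0.93, adjusted p = 0.0012). E23, also of the early response and in that list, was higher (1.21, adjusted p = 2.11e-05). Both br and E23 were named after their values were seen. Eip75B encodes a nuclear receptor that binds heme and represses Hr3 activity. Its libraries stood at 258, 275 and 315 CPM in the double mutant, at 511 and 456 CPM in the single mutant and at 543, 547 and 554 CPM in Canton-S, where the libraries lay closest together. Its fall in the double mutant was by 0.96 (log2, SE 0.09, adjusted p = 6.03e-05). Its log2 difference was -0.18 in the single mutant (95% interval -0.41 to 0.05, adjusted p = 0.23).

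Eip74EF, an ETS-domain transcription factor, was low in every library, standing at 8.54, 9.36 and 11.4 CPM in the double mutant, at 2.36 and 1.71 CPM in the single mutant and at 3.24, 5.15 and 3.84 CPM in Canton-S. The 3 genotypes did not overlap, with the double mutant highest and the single mutant lowest. It rose in the double mutant by 1.09 (SE 0.19, adjusted p = 0.0017) and was called lower in the single mutant with a log2 difference of -0.73 (SE 0.21, adjusted p = 0.046). The call in the single mutant rested on 71 and 57 reads and was lost in 13 of the 20 alternatives, over which the adjusted p ran from 0.016 to 0.20. Leaving out any 1 library except double mutant replicate 3 ended it, with log2 differences between -0.89 without single mutant replicate 1 and -0.57 without single mutant replicate 2.

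Of the early-late genes, Hr3 and Hr4 also parted. Hr3 encodes an orphan nuclear receptor that activates ftz-f1. It stood at 1.31, 1.69 and 1.23 CPM in the double mutant, at 4.79 and 6.08 CPM in the single mutant and at 9.13, 9.60 and 9.91 CPM in Canton-S. The 3 genotypes were well apart, with the double mutant lowest and the single mutant in between. Hr3 fell in the double mutant by 2.13 (log2, SE 0.14, adjusted p = 1.1e-05). The log2 difference was -0.72 in the single mutant (SE 0.16, adjusted p = 0.020), a call lost in 8 of 20 alternatives (adjusted p from 0.012 to 0.083). These included leaving out Canton-S replicate 1, 2 or 3 (-0.75, -0.71 and -0.69) or single mutant replicate 1 (-0.57). Of the 10465 exon bases of Hr3, 6466 are shared with CG12912 and 6071 with CG46321 on the same strand, both listed at 0 in all libraries. How shared positions were counted is not given, so Hr3 may have lost reads there in every library. Its CPM and its level per kilobase may therefore be too low.

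Hr4, a nuclear receptor that in the prothoracic gland restrains ecdysone synthesis, was read at 30.3, 35.1 and 34.5 CPM in the double mutant, at 8.26 and 6.35 CPM in the single mutant and at 12.8, 17.6 and 11.2 CPM in Canton-S. The order of the genotypes was that of Eip74EF, again with no overlap. Hr4 rose in the double mutant by 1.23 (SE 0.17, adjusted p = 0.00064). It was called lower in the single mutant with a log2 difference of -0.83 (SE 0.20, adjusted p = 0.025), a call lost in 6 of 20 alternatives (adjusted p from 0.0025 to 0.13). These included leaving out Canton-S replicate 1 or 2 (-0.87 and -0.65) or single mutant replicate 2 (-0.66). Hr4 shares only 46 bases with PIG-K on the other strand.

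Hr39, a nuclear receptor closely related to ftz-f1, changed least of the genes called in the double mutant. Its libraries lay at 73.6, 77.7 and 89.5 CPM in the double mutant, at 115 and 96.3 CPM in the single mutant and at 99.8, 103 and 121 CPM in Canton-S. It fell in the double mutant by 0.42 (SE 0.11, adjusted p = 0.013), with no overlap between the groups. Its difference was -0.03 in the single mutant (95% interval -0.32 to 0.26, adjusted p = 0.89).

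ftz-f1, the competence factor whose activation by Hr3 is held back by Eip75B in prepupae, rose in the double mutant while both Hr3 and Eip75B fell. It stood at 177, 163 and 181 CPM in the double mutant, at 120 and 101 CPM in the single mutant and at 91.4, 105 and 97.4 CPM in Canton-S. The single mutant overlapped Canton-S, and the double mutant stood above both. The rise was 0.82 (log2, SE 0.09, adjusted p = 0.00015), and the difference in the single mutant was 0.17 (95% interval -0.06 to 0.40, adjusted p = 0.27). ftz-f1 shares 2521 bases of exon on the same strand with lncRNA:CR45939, which reached at most 3.53 CPM in any library.

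Hr38, the fly member of the NR4A receptors, pairs with usp and is used as a marker of recent neuronal activity. Its libraries stood at 8.10, 9.81 and 10.5 CPM in the double mutant, at 42.5 and 65.3 CPM in the single mutant and at 50.6, 55.4 and 54.5 CPM in Canton-S. The 2 single mutant libraries stood on either side of Canton-S, and every double mutant library was far below both. Hr38 fell in the double mutant by 2.39 (log2, SE 0.16, adjusted p = 1.24e-05), the 89th deepest fall of the 10575 genes. Its difference in the single mutant was -0.02 (95% interval -0.44 to 0.40, adjusted p = 0.95). The neuron markers were lower in the double mutant too, with 10 of 10 called lower and a median log2 difference of -1.15, against 26.7% of all genes called lower. In the single mutant 3 of 10 were called lower, with a median of -0.25, against 11.8% of all genes. The part of the neuron markers in the values of Hr38, Hr3 and Eip75B was not tested.

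Eip71CD encodes no transcription factor but an enzyme, a methionine sulfoxide reductase that repairs oxidised proteins, and it fell in both mutants. It was read at 13.0, 11.7 and 10.9 CPM in the double mutant, at 10.6 and 8.71 CPM in the single mutant and at 182, 133 and 118 CPM in Canton-S. Both mutants were low, close to each other and far below every Canton-S library. The fall was by 3.47 (log2) in the double mutant (SE 0.17, adjusted p = 2.66e-06) and by 3.75 in the single mutant (SE 0.19, adjusted p = 7.0e-05), the 22nd and the 4th deepest falls of all genes tested. It was called in both comparisons in all 20 alternatives. How far this fall goes with elav or with the background of the mutant lines was not tested. gdl, the gene just before Eip71CD, was too low to be tested. It stood between 0.779 and 0.976 CPM in the double mutant and between 0.999 and 1.80 CPM in the single mutant. In Canton-S it stood between 0.242 and 0.578 CPM. After Eip71CD, CG13454 was called higher in the double mutant only (log2 difference 1.35), and mex1 was called in neither mutant.

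**Figure D2:**
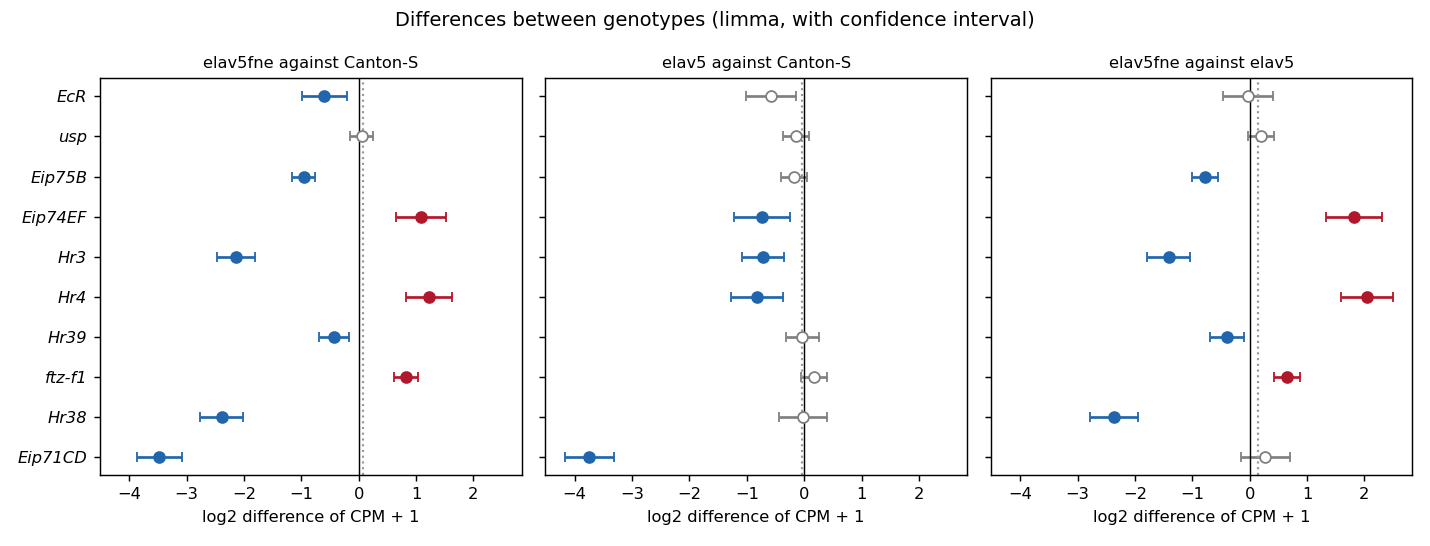
Log2 differences of CPM + 1 (horizontal axes) for the 10 genes in the double mutant against Canton-S, the single mutant against Canton-S and the double against the single mutant, with 95% intervals from limma. Filled red and blue points were called higher and lower, open grey points were not called, and the dotted line is the median of all genes tested (0.07, -0.04 and 0.14). Eip74EF and Hr4 lie on opposite sides of 0 in the left and middle panels.

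The double mutant was also compared with the single mutant. The mutants are separate lines, so the loss of fne and other differences between the lines cannot be told apart. The remaining elav signal was itself called higher in the double mutant, by 0.94 (log2, SE 0.13, adjusted p = 0.00077). Of the 10 genes 7 were called, 3 higher (Hr4, Eip74EF and ftz-f1) and 4 lower (Hr38, Hr3, Eip75B and Hr39). Over all genes tested 43.4% were called, 26.8% higher and 16.7% lower. The share of called genes that were higher was 61.6%, against 43.0% under quantile normalization, 50.6% under median-ratio scaling and 50.4% with edgeR, and the 10 genes split 3 and 4 under each. Hr4 averaged 33.3 ± 2.61 CPM in the double mutant and 7.30 ± 1.35 CPM in the single mutant (SD, n = 3 and 2), a log2 difference of 2.05 (SE 0.20, adjusted p = 0.00012). Eip74EF averaged 9.76 ± 1.46 CPM in the double mutant and 2.04 ± 0.465 CPM in the single mutant, a difference of 1.83 (SE 0.21, adjusted p = 0.00034). Hr38 averaged 9.46 ± 1.22 CPM in the double mutant and 53.9 ± 16.1 CPM in the single mutant, and fell by 2.37 (SE 0.18, adjusted p = 4.24e-05).

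Hr3 fell between the mutants by 1.41 (SE 0.16, adjusted p = 0.00029), Eip75B fell by 0.78 (SE 0.10, adjusted p = 0.00055), and ftz-f1 rose by 0.65 (SE 0.10, adjusted p = 0.0014). Hr39 fell by 0.39 (SE 0.13, adjusted p = 0.038). The call of Hr39 was lost in 8 of 20 alternatives, among them those without Canton-S replicate 1 or 2, single mutant replicate 1, or double mutant replicate 1 or 2 (adjusted p up to 0.20), and its difference was -0.26 without single mutant replicate 1. The genes not called between the mutants were EcR (log2 difference -0.02, 95% interval -0.46 to 0.42), usp (0.19, -0.03 to 0.42) and Eip71CD (0.27, -0.16 to 0.70). usp was called higher without double mutant replicate 3 (0.27, adjusted p = 0.036, against a range from 0.036 to 0.63). EcR was called lower without that library and single mutant replicate 2 (-0.36, adjusted p = 0.044, against a range from 0.044 to 0.95).

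Eip74EF and Hr4 were thus called in both mutants with opposite signs, lower in the single and higher in the double mutant. Opposite calls were found for 131 of the 10575 genes tested, or 1.24%, and those in this direction for 84, or 0.794%. Another early response gene, E23, an ABC transporter induced by ecdysone, was among them. It averaged 67.5 ± 2.04 CPM in the double mutant, 21.5 ± 2.41 CPM in the single mutant and 28.6 ± 2.22 CPM in Canton-S, with log2 differences against Canton-S of 1.21 and -0.40 (adjusted p = 2.11e-05 and 0.032). These genes were singled out after their values were seen, and the calls of Eip74EF and Hr4 in the single mutant depend on the settings named above, while that of E23 was examined under no other setting. The difference between the mutants was called for Eip74EF and Hr4 in all 20 alternatives.

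Levels were compared between genes per kilobase of exon. In the double mutant usp (23.04 ± 2.32 CPM per kilobase), Eip75B (21.0 ± 2.18) and ftz-f1 (20.2 ± 1.10) were the highest and their libraries overlapped. Hr39 (16.1 ± 1.66) came next, and then Eip71CD (8.76 ± 0.774) and EcR (6.38 ± 1.67), which overlapped. Hr4 stood at 2.39 ± 0.187, Hr38 (1.23 ± 0.158) and Eip74EF (1.05 ± 0.157) overlapped, and Hr3 was last at 0.135 ± 0.0236 (SD, n = 3). In the single mutant Eip75B led at 36.0 ± 2.91 CPM per kilobase, Hr39 (21.2) and usp (20.1) came next, and Eip74EF was last at 0.218 ± 0.0498 (n = 2). In Canton-S Eip71CD was the highest at 106 ± 24.9 CPM per kilobase, followed by Eip75B at 40.7 ± 0.392. usp (22.1 ± 0.650) and Hr39 (21.7 ± 2.27) overlapped, and ftz-f1 (11.4 ± 0.771), EcR (9.53 ± 0.606) and Hr38 (6.94 ± 0.333) followed without overlap. Hr4 (0.998 ± 0.241) and Hr3 (0.912 ± 0.0374) overlapped, and Eip74EF was last at 0.436 ± 0.105 (n = 3).

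The order of the genes thus differed between genotypes. Eip71CD had a higher level per kilobase than 40.6% of tested genes in the double mutant, 41.0% in the single mutant and 95.0% in Canton-S. Hr3 stood above 0.609% of tested genes in the double mutant, 7.10% in the single mutant and 14.1% in Canton-S. The exon length used for Hr3 includes the positions shared with CG12912 and CG46321. Eip75B stood above 65.6% in the double mutant, 80.9% in the single mutant and 83.2% in Canton-S.

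**Figure D3:**
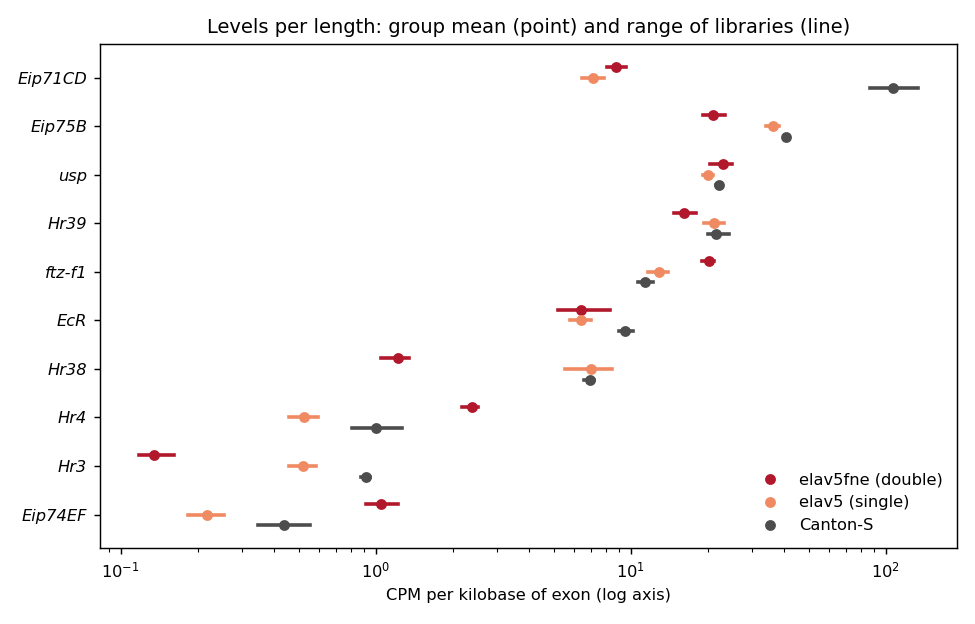
CPM per kilobase of exon (horizontal log axis) of the 10 genes, ordered by the Canton-S mean. Points are group means and lines the range of the libraries, with the double mutant drawn above the single mutant and Canton-S below. Levels in Canton-S run from 0.436 for Eip74EF to 106 for Eip71CD, and ftz-f1 in the double mutant sits beside usp and Eip75B.

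To look for the order that a shift in developmental time would concern, the directions of the genes were set beside their place in the cascade. If the genes are set in the order of the cascade, both directions occur among the early and among the early-late genes in the double mutant. EcR was lower and usp not called among the receptors, Eip75B lower and Eip74EF higher among the early genes, Hr3 lower and Hr4 higher among the early-late genes, and the later ftz-f1 higher. Hr39, also induced early-late, was lower, as were Hr38 and Eip71CD, which were given no step. Of the early response genes counted in another list, br was lower and E23 higher (log2 differences -0.93 and 1.21). In the single mutant, Eip74EF, Hr3 and Hr4 were called lower at the early and early-late steps, while Eip75B and Hr39 at these steps were not called. The calls of Eip74EF, Hr3 and Hr4 were lost in 13, 8 and 6 of 20 alternatives. Eip71CD was called lower too, and the log2 difference of ftz-f1 was above 0 but not called. The labels give L1 for all libraries and no age within it, so genotype and developmental age within the stage cannot be told apart here, and a shift in time was not tested.

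Genes tied to developmental stage and to temporal patterning of neuroblasts were counted beside them. Of 16 tested, 8 were higher and 4 lower in the double mutant (median log2 difference 0.36, against 0.07 for all genes), and 4 were higher and none lower in the single mutant (median 0.21, against -0.04). These counts and those of the lists that follow stand against 32.5% of all genes higher and 26.7% lower in the double mutant, and 8.29% higher and 11.8% lower in the single mutant. lin-28, an RNA-binding protein of developmental timing, averaged 166 ± 10.4 CPM in the double mutant, 49.6 ± 2.37 CPM in the single mutant and 26.5 ± 4.65 CPM in Canton-S, and rose in both mutants. cas, a temporal factor of neuroblasts, averaged 369 ± 50.9 CPM in the double mutant and 60.1 ± 6.47 CPM in Canton-S. Mmp1, a matrix metalloprotease that also answers injury, averaged 165 ± 24.0 CPM in the double mutant and 25.1 ± 5.75 CPM in Canton-S. All 3 were called higher in the double mutant, with log2 differences of 2.62 for lin-28, 2.596 for cas and 2.68 for Mmp1. The 4 called lower there, named after their values were seen, were pdm2 (-1.34), br (-0.93), Kr (-0.49) and nub (-0.365). Kr and nub were called higher in the single mutant (0.415 and 0.507). Imp and Syp were named after their values were seen, because larval neuroblasts express them in opposite gradients over time. Both rose in the double mutant, Imp to 939 ± 55.7 CPM, against 673 ± 24.8 CPM in Canton-S, and Syp to 35.7 ± 1.47 CPM, against 3.48 ± 2.32 CPM in Canton-S (SD, n = 3 each).

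Of 22 other ecdysone response genes tested, 5 were higher and 9 lower in the double mutant (median log2 difference -0.42), and 1 was higher and 4 lower in the single mutant (median -0.30), so the share called was near that of all genes in both comparisons. Ldh, lactate dehydrogenase, named ImpL3 when it was found as an ecdysone-inducible gene, fell by 2.17 in the double mutant (SE 0.10, adjusted p = 2.66e-06) and by 0.59 in the single mutant (SE 0.12, adjusted p = 0.014, and 0.053 without Canton-S replicate 1). vri, a bZIP factor of the circadian clock that also answers ecdysone, rose by 2.15 in the double mutant (SE 0.12, adjusted p = 4.2e-06) and by 0.81 in the single mutant (SE 0.13, adjusted p = 0.0077). Eip78C, a nuclear receptor related to Eip75B, averaged 16.9 ± 1.03 CPM in the double mutant and 46.0 ± 2.93 CPM in Canton-S, and fell by 1.39 (SE 0.09, adjusted p = 1.04e-05). br, a zinc finger factor of the early response, averaged 269 ± 21.3 CPM in the double mutant and 514 ± 37.5 CPM in Canton-S, and fell by 0.93 (SE 0.15, adjusted p = 0.0012). It was named after its values were seen.

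Among the nuclear receptors outside the 10 genes, 4 of 12 were higher and 1 lower in the double mutant (median log2 difference 0.15), and none was called in the single mutant. Hnf4, a sensor of fatty acids, averaged 59.6 ± 5.98 CPM in the double mutant and 18.7 ± 3.41 CPM in Canton-S. tll, a receptor of neural progenitors, averaged 16.3 ± 1.12 CPM in the double mutant and 7.30 ± 0.417 CPM in Canton-S. Both rose, by 1.63 for Hnf4 and 1.06 for tll on the log2 scale (adjusted p = 3.61e-05 and 0.00036). The one receptor that fell was Eip78C.

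Partners of the receptor and the uptake of the hormone were counted as a further list, with 5 of 13 higher and 2 lower in the double mutant (median log2 difference 0.14) and 1 higher and 1 lower in the single mutant (median -0.19). Oatp74D, the importer that carries ecdysone into cells, was read at 132, 154 and 191 CPM in the double mutant, at 80.5 and 51.5 CPM in the single mutant and at 50.3, 50.1 and 59.0 CPM in Canton-S. It rose in the double mutant by 1.55 (SE 0.19, adjusted p = 0.00027), with every library above those of Canton-S, while EcR fell. Samuel, also known as Moses, and Alh, a chromatin protein, rose in the double mutant by 1.32 (SE 0.21, adjusted p = 0.0013) and 0.53 (SE 0.09, adjusted p = 0.0018). Alh also rose in the single mutant, by 0.38 (SE 0.10, adjusted p = 0.038), a call lost without Canton-S replicate 1 or 2, single mutant replicate 1 or 2, or double mutant replicate 2 (adjusted p up to 0.146).

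Transcripts of ecdysone synthesis and of the ring gland, the endocrine gland attached to the larval brain, were counted together. The list also holds jhamt and Akh, which belong to other hormones of the gland, and Ptth, the neuropeptide that drives the gland. Of 15 tested, 8 were lower and 1 higher in the double mutant (median log2 difference -0.63), and 7 were lower and none higher in the single mutant (median -0.53). Several of those lower in the double mutant were low in every genotype. In Canton-S nvd averaged 2.61 CPM, Ptth 2.56 CPM and ouib 1.24 CPM, while Npc1a averaged 261 CPM. spok, a cytochrome P450 of the pathway, was read at 2.84, 4.10 and 3.36 CPM in the double mutant, at 2.96 and 1.98 CPM in the single mutant and at 10.7, 18.3 and 17.3 CPM in Canton-S. Both mutants were below Canton-S, as for Eip71CD. spok fell by 1.87 in the double mutant (SE 0.23, adjusted p = 0.00030) and by 2.22 in the single mutant (SE 0.26, adjusted p = 0.0026). Npc1a, which moves sterols out of endosomes, fell by 0.71 in the double mutant (SE 0.09, adjusted p = 0.00026) and by 0.46 in the single mutant (SE 0.10, adjusted p = 0.017). The call in the single mutant was lost without Canton-S replicate 1 or single mutant replicate 2 (adjusted p = 0.057 and 0.059). jhamt, an enzyme of juvenile hormone synthesis, fell by 1.55 in the double mutant (SE 0.28, adjusted p = 0.0020). How much of the gland was taken with each CNS is not given, and its part in these values and in those of the 10 genes was not tested.

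**Figure D4:**
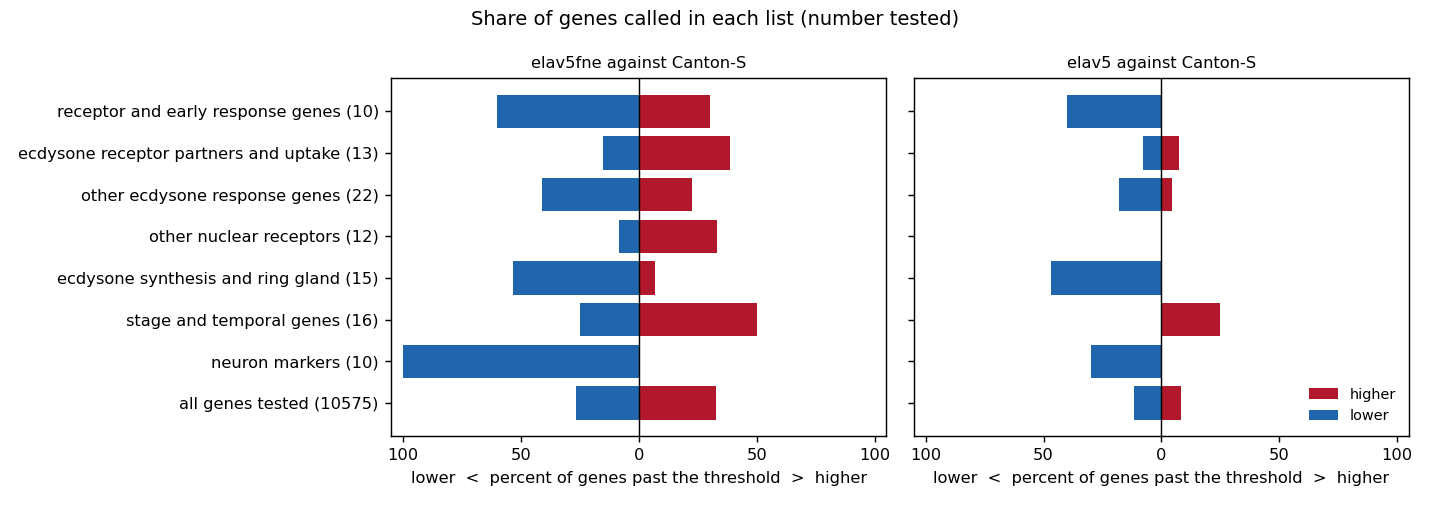
Percent of tested genes called lower (left of 0) and higher (right of 0) in each list, with the number tested in brackets, for the double mutant and for the single mutant against Canton-S. The bottom row gives all 10575 genes tested, 32.5% higher and 26.7% lower in the double mutant and 8.29% and 11.8% in the single mutant.

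Markers of other tissues moved between libraries as well. The 12 muscle markers summed to between 3187 and 16400 CPM in the double mutant, between 1141 and 3089 CPM in the single mutant and between 1628 and 2013 CPM in Canton-S, and 10 of 12 were higher in the double mutant. The 10 gut markers summed to between 31.1 and 366 CPM in the double mutant, between 15.5 and 22.6 CPM in the single mutant and between 12.5 and 54.8 CPM in Canton-S. The 8 fat body markers summed to between 495 and 989 CPM in the double mutant, between 550 and 617 CPM in the single mutant and between 889 and 1631 CPM in Canton-S. The 8 hemocyte markers summed to between 88.5 and 176 CPM in the double mutant, between 36.4 and 74.9 CPM in the single mutant and between 106 and 159 CPM in Canton-S. The 12 trachea and cuticle markers summed to between 276 and 353 CPM in the double mutant, between 283 and 335 CPM in the single mutant and between 378 and 406 CPM in Canton-S, and the 7 salivary gland markers to between 55.4 and 98.3 CPM, 51.0 and 52.2 CPM, and 42.5 and 48.6 CPM in the double mutant, the single mutant and Canton-S. The part of these tissues in the values of the 10 genes was not tested. The double mutant library with the most muscle and gut signal was replicate 3. It was also the highest of its group for 6 of the 10 genes, EcR, Eip74EF, Eip75B, Hr38, Hr39 and ftz-f1. The share of all genes tested that were highest in that library was not counted, so the 6 cannot be set against it. Without double mutant replicate 3, 9 of the 10 genes were called in the double mutant, 3 higher and 6 lower, where 5955 of all 10316 genes tested were called. In the single mutant 5 of the 10 were then called, all lower, where 2589 of all genes were called.

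The gene most like each of the 10 over the 8 libraries was found by Pearson's r of log2(CPM + 1), among 5178 tested genes that averaged at least 5 CPM and whose symbol does not begin with CG or CR, as unnamed genes do. The libraries share 3 genotypes, so high values come readily and are given as descriptions. In all, 349 of these genes passed 0.95 for Hr3 and 324 for ftz-f1, but 2 did for Hr39 and none for usp. Hr3 was most like Eh, the eclosion hormone of the brain (r = 0.998). Eip74EF and Hr4 were both most like Sec31, a coat protein of secretory vesicles (0.994 and 0.996). ftz-f1 was most like Rel, an NF-kappaB factor (0.995), Hr38 most like GlyS, glycogen synthase (0.997), and Eip75B most like mtd (0.994). Eip71CD was most like Pcyt2, an enzyme of phospholipid synthesis (0.996), EcR most like Sym (0.985), Hr39 most like egh (0.974) and usp most like corn (0.945). Between the 10 genes themselves, r was 0.988 for Eip74EF and Hr4, 0.957 for Eip75B and Hr38, and -0.978 for Hr3 and ftz-f1.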

How the data were processed

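The authors deposited CPM per gene for 8 libraries, made from a stranded total RNA kit per the labels' protocols and aligned with HISAT2 to dm6 per the submitters' processing notes. The sources used here give no versions, and no counter, annotation or strand setting. Each column sums to 1000000. Reads could be recovered, since 100% of values above 0 came out whole (tolerance 0.01) once divided by the worth of 1 read in their library. For 55 genes with a missing or date-like symbol the gene ID supplied it. Of the IDs, 17710 matched the Ensembl BDGP6.54 annotation, which gave positions and exon lengths.

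The test was limma 3.58.1 (R 4.3.3, mean-variance trend) on log2(CPM + 1), fitted to the 8 libraries together with a mean for each genotype, for genes reaching 1 CPM in 2 or more libraries. The single mutant borrows the spread of the other groups. Among 20 alternatives, the recovered reads were tested by the quasi-likelihood method of edgeR 4.0.16 and by DESeq2 1.42.0. edgeR called 6404, 1979 and 4313 genes in the 3 comparisons against 6259, 2124 and 4593 by limma. The fit was also run on simulated counts with 200 genes changed and the same spread for every gene. That setting is simpler than these libraries, so it does not show how the fit performs on them. The 10 genes, the lists and the alternatives were chosen with earlier results of these data known, so no count is independent evidence. Lists came from general knowledge, with 4 names matched by synonym, and their 3 genes of smallest p among those called in the double mutant with at least 5 CPM in 1 group are named. Of the marker lists the 2 most abundant genes fall under the rule, of which nrv3 is printed beside the sums. Some genes stand in more than 1 list.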

Additional observations from a re-analysis of the deposited data

How the results depend on the processing

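The 20 alternatives were other pseudocounts (0.1 and 5 CPM), the replicate block, edgeR, DESeq2, quantile normalization, median-ratio scaling, no trend, the 2 groups compared alone, all genes unfiltered, genes averaging over 5 CPM, each library left out, and single mutant replicate 2 with double mutant replicate 3 left out. In the double mutant against Canton-S, 8 or 9 of the 10 genes were called in all of them (leaving out 1 library, 8 to 9), with 5228 to 6393 genes in all when 1 library was left out. Between the mutants 6 to 8 of the 10 were called, and 3361 to 4355 of all genes without 1 library. The single mutant against Canton-S was the weak comparison. Its 4 calls among the 10 genes became 2 unfiltered and 2 among genes averaging over 5 CPM, and 1 to 5 without 1 library. It called 806 to 2589 genes of all without 1 library, with 904 without Canton-S replicate 1, 1053 without Canton-S replicate 2 and 806 without single mutant replicate 2. For libraries of different genotypes with the same number, r between their deviations from the group means ran from -0.364 to 0.110. With so few libraries in a group these deviations are tied to each other, so r cannot decide whether the numbers mark pairs. The main fit did not take them as pairs. Under the replicate block, which rests on these numbers only, the single mutant against Canton-S called 932 genes and 1 of the 10, which was Eip71CD. The block did not change the number of the 10 called in the other comparisons (9 and 7). Quantile normalization moved the median log2 difference of all genes in the double mutant from 0.07 to -0.11, and between the mutants from 0.14 to -0.07. The share of called genes that were higher was then 41.3% against 54.9% in the double mutant and 43.0% against 61.6% between the mutants, and DESeq2 gave 52.4% against 41.3% in the single mutant.

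Values near 0 changed sign without being called. usp in the double mutant was -0.006, -0.012 and -0.018 under median-ratio scaling, quantile normalization and edgeR and -0.010 without double mutant replicate 1 (range without 1 library up to 0.133). In the single mutant Hr38 was 0.038, 0.058, 0.021, 0.047 and 0.069 under median-ratio scaling, quantile normalization, the replicate block, edgeR and DESeq2, and 0.005 and 0.284 without Canton-S replicate 2 or single mutant replicate 1, and as low as -0.325 without single mutant replicate 2. Hr39 there was 0.029, 0.028, 0.051, 0.002 and 0.031 in the same order of settings, 0.053 without Canton-S replicate 3, 0.099 without single mutant replicate 2, and 0.099 without it and double mutant replicate 3, but -0.159 without single mutant replicate 1. Between the mutants EcR was 0.108, 0.106 and 0.045 without single mutant replicate 1, double mutant replicate 1 or double mutant replicate 2 (down to -0.226 without double mutant replicate 3), and Eip71CD was -0.095 under quantile normalization. The cause was not tested. Hr3 in the double mutant was -1.18 with a pseudocount of 5 CPM and -2.83 with edgeR, which adds no pseudocount of this size.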
